A study of Mus musculus with 2 samples.

Results

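The 9 transcription factor genes described here, of the 32285 genes in the deposited matrices, were followed through the mouse aorta. They were chosen by name as factors of the endothelial lineage: Erg, Fli1 and Ets1 of the ETS family, Sox7, Sox17 and Sox18 of the SoxF group, the helix-loop-helix factor Tal1, the nuclear receptor Nr2f2 and the homeodomain factor Prox1. All 9 had a row in both matrices. The study compared 2 groups of ApoE-/- mice on the C57BL/6 background that ate a Western diet, a model of atherosclerosis. Mice labelled WT were the controls, and EC-iCD45KO mice carried a tamoxifen-inducible deletion of CD45, encoded by Ptprc, aimed at endothelial cells. Whether the controls received tamoxifen or carried the recombinase is not stated here. The driver of the recombinase, the age of the mice and the number of aortas behind each library were not given in the sources used here. Aortic cells were enriched with CD31 beads and gave 1 single-cell RNA library per group, so no difference between groups had a replicate check and no test was made.

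ETS factors bind a GGAA core and, in endothelium, keep junction and receptor genes active. Erg is the member most closely tied to endothelial identity, Fli1 works in endothelium and blood cells, and Ets1 is also a major factor of lymphocytes. SoxF factors act downstream of VEGF signals, and Sox17 is known for arterial identity. Tal1 builds complexes with Lmo2 and GATA factors in blood progenitors and endothelium. Nr2f2, also called COUP-TFII, holds venous identity, and Prox1 is the switch that makes and maintains lymphatic endothelium.

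The WT library held 39849 barcodes and 92058043 UMIs (unique molecular identifiers, 1 per captured RNA molecule), and the EC-iCD45KO library 30278 barcodes and 88967918 UMIs. Barcodes with under 300 genes or over 10% mitochondrial UMIs were dropped, and after removal of likely doublets 35553 and 26064 cells fell into 41 clusters. The libraries shared 340 barcodes. Clusters were named from markers that did not include the 9 factors, which were also left out of the clustering. Endothelial-like (EC-like) cells numbered 3882 in WT and 3896 in EC-iCD45KO, in 4 clusters, and lymphatic EC-like cells 240 and 222, in 1 cluster. All 15 EC markers, among them Cdh5 and Pecam1, were higher in EC-like cells than in all other cells, by 5.87-fold to 40.3-fold. These same 15 markers gave the EC-like cells their name, so higher levels there were largely fixed by the naming. Makeup differed between libraries: B-like cells were 16.2% of WT and 1.30% of EC-iCD45KO cells, and macrophage-like cells 9.74% and 36.4%. Levels are given as CPM, the UMIs of a gene per 1000000 UMIs of the class, and where a pair of values stands side by side the WT value comes first. Ptprc was at 303 and 114 CPM in EC-like cells, a log2 ratio (EC-iCD45KO over WT) of -1.42. Lymphocyte RNA differed the same way there. By their median, B markers stood at 14.2% and 0.953% of their B-like level and T/NK markers at 6.38% and 1.06% of their T/NK-like level. These classes had 755 and 1118 CPM of Ptprc in WT. Macrophage markers went the other way, at 15.1% and 19.7% of their level in macrophage-like cells, which had 499 and 283 CPM of Ptprc. Neutrophil markers did too, at 0.414% and 0.922%. The part of such RNA in the difference was not tested. Ptprc was also lower in smooth muscle-like (SMC-like) cells (-1.07), fibroblast-like cells (-1.18) and macrophage-like cells (-0.82), and higher in B-like cells (755 and 1262 CPM, 0.74), none of which was the target of the deletion. Whether the deleted exons were covered by the reads is not given in the sources used here.

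Positions are on GRCm38 from GENCODE release M21. Erg lies at chr16:95359169-95586593 on the minus strand. Fli1 (chr9:32422204-32542861, minus) and Ets1 (chr9:32636221-32757820, plus) are neighbours on chromosome 9, 93359 bp apart. The SoxF genes lie on separate chromosomes: Sox7 at chr14:63943673-63950732 (plus), Sox17 at chr1:4490931-4497354 (minus) and Sox18 at chr2:181669836-181671640 (minus). Tal1 is at chr4:115056426-115071755 (plus), Nr2f2 at chr7:70351944-70366735 (minus) and Prox1 at chr1:190118035-190170714 (minus). Genes on the opposite strand overlap Fli1 (Gm27201), Ets1 (Gm27240), Sox17 (Gm37587), Nr2f2 (B130024G19Rik) and Prox1 (Gm28172 and Prox1os). Each of these opposite-strand genes had its own row in the matrices. Whether the counting used strand was not given in the sources used here, so how reads over both genes of a pair were assigned is not known here.

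RefSeq promoter windows (GRCm38.p6) matched 4 of the 9 genes, with 8 windows in all; Sox7, Sox17, Sox18, Fli1 and Ets1 had no entry. One window per gene is shown, as the 250 bases before a start site, for the factor high in both endothelial and chondrocyte-like cells (Erg) and for the 3 factors that were highest in the lymphatic cluster among the 5 endothelial ones (Tal1, Nr2f2 and Prox1). The Erg window was picked after the counts were seen, as the 1 with a Sox core. Each is read 5′ to 3′ on the gene's strand, with the ETS core GGAA, or TTCC when read on the other strand, and the Sox core ACAAT, or ATTGT on the other strand, in capitals. The ETS core was in 96.0% of all 32851 windows of the full 300 bases, and the Sox core in 31.0%.
Erg (chr16:95459349-95459598, inside an intron of Erg): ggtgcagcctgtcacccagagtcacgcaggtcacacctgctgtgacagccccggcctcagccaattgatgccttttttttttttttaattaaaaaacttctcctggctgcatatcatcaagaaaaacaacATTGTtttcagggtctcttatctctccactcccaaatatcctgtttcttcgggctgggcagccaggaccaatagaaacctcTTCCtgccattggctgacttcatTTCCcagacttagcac
Tal1 (chr4:115056176-115056425, outside annotated genes): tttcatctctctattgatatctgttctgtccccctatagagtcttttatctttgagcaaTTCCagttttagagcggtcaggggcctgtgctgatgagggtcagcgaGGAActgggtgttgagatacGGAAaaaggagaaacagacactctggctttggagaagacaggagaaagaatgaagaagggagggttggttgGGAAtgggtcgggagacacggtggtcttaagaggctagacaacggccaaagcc
Nr2f2 (chr7:70366747-70366996, over an exon of the opposite-strand B130024G19Rik): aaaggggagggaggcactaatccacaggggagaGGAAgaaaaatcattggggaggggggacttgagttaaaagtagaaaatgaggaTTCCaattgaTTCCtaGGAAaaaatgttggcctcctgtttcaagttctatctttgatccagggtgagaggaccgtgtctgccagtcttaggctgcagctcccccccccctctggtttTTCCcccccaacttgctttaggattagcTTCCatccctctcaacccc
Prox1 (chr1:190170828-190171077, over an intron of the opposite-strand Prox1os): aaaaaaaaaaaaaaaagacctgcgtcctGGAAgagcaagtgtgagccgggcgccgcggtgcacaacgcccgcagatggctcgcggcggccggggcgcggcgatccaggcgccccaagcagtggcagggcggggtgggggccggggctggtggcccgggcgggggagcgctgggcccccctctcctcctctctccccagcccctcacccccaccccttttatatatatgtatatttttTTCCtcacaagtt
The full Nr2f2 window held 7 ETS cores, a number reached by 8.02% of windows. The full Prox1 window shown held 2, reached by 84.6%, and the other Prox1 window 5, reached by 28.6%. Both Tal1 windows held 4 (46.3%). The full Erg window shown held 2 ETS cores, the Erg window at the start of the gene 1 and the remaining Erg window 4. The Erg window shown also held 2 Sox cores, reached by 7.98% of windows, of which 1 lies in the 250 bases printed. The other two Erg windows held none, nor did any window of Tal1, Nr2f2 or Prox1. A match is a run of letters and not a bound site.

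Erg, the ETS factor of endothelial identity, had 127 CPM in WT EC-like cells (95% counting interval 119 to 135) and 169 CPM in the EC-iCD45KO ones (161 to 177). Among the 5 endothelial clusters its level was highest, in both libraries, in the capillary cluster led by Gpihbp1 and Ccdc85a, at 184 CPM in WT and 242 CPM in EC-iCD45KO. The venous cluster led by Ackr1 and Selp followed at 149.7 and 182 CPM, with an interval that overlapped the capillary one in WT, and the arterial cluster led by Sfrp1 and Tmem158 at 130.2 and 160.2 CPM. The largest cluster, led by Rbp7 and Sema3g, had no clear lead among the subtype markers and was given no subtype. Its Erg level was 88.7 and 122 CPM. Macrophage markers summed to 4551 and 5856 CPM in that cluster, against 693 and 446.5 CPM in the capillary cluster. The part of such RNA in the order of the clusters was not tested. Lymphatic EC-like cells had 124 CPM in WT and 77.0 CPM in EC-iCD45KO, so Erg was higher in EC-iCD45KO in all 4 EC-like clusters and lower there in the lymphatic cluster. In the lymphatic cluster macrophage markers summed to 1808 and 4804 CPM. Of the 15 EC markers 11 were higher in EC-iCD45KO there, with a median log2 ratio of 0.28.

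Erg was not limited to endothelium. Chondrocyte-like cells, led by Ibsp and Col2a1, had 154 CPM of Erg in WT (140.4 to 169) and 162 CPM in EC-iCD45KO (131 to 197), so their level was 121% and 95.6% of the EC-like level. The 15 EC markers reached at most 11.02% and 6.83% of their EC-like level in the same cells. SMC-like cells had 81.6 and 95.9 CPM of Erg, 64.3% and 56.8% of the EC-like level, against at most 10.9% and 7.26% for any EC marker. Within them, the cluster led by Acta2 and Vcam1, with 630 and 667 deep cells (median 8162 and 11316 UMIs), had 96.6 and 112 CPM of Erg with 1.90 and 0.9985 CPM of Sox18. The cluster led by Cnn1 and Tagln, with 1663 and 2297 shallower cells (1082 and 1183 UMIs), had 43.1 and 65.8 CPM of Erg. That was 33.9% and 38.9% of the EC-like level, where EC markers reached up to 20.2% and 12.05%. Macrophage-like cells held 2.55 and 4.102 CPM of Erg, 2.01% and 2.43% of the EC-like level, within the range of the EC markers. To count cells at one depth, cells under 1000 UMIs were left out and the others thinned to that number, which kept 2620 of 3882 WT and 2510 of 3896 EC-iCD45KO EC-like cells. Of the cells kept, 10.5% of EC-like cells in WT and 12.9% in EC-iCD45KO had an Erg UMI, against 0.259% and 0.616% of macrophage-like cells. Median depth before thinning was 1328.5 and 1321 UMIs in EC-like cells and 3303 and 2188 in macrophage-like cells.

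**Figure D1:**
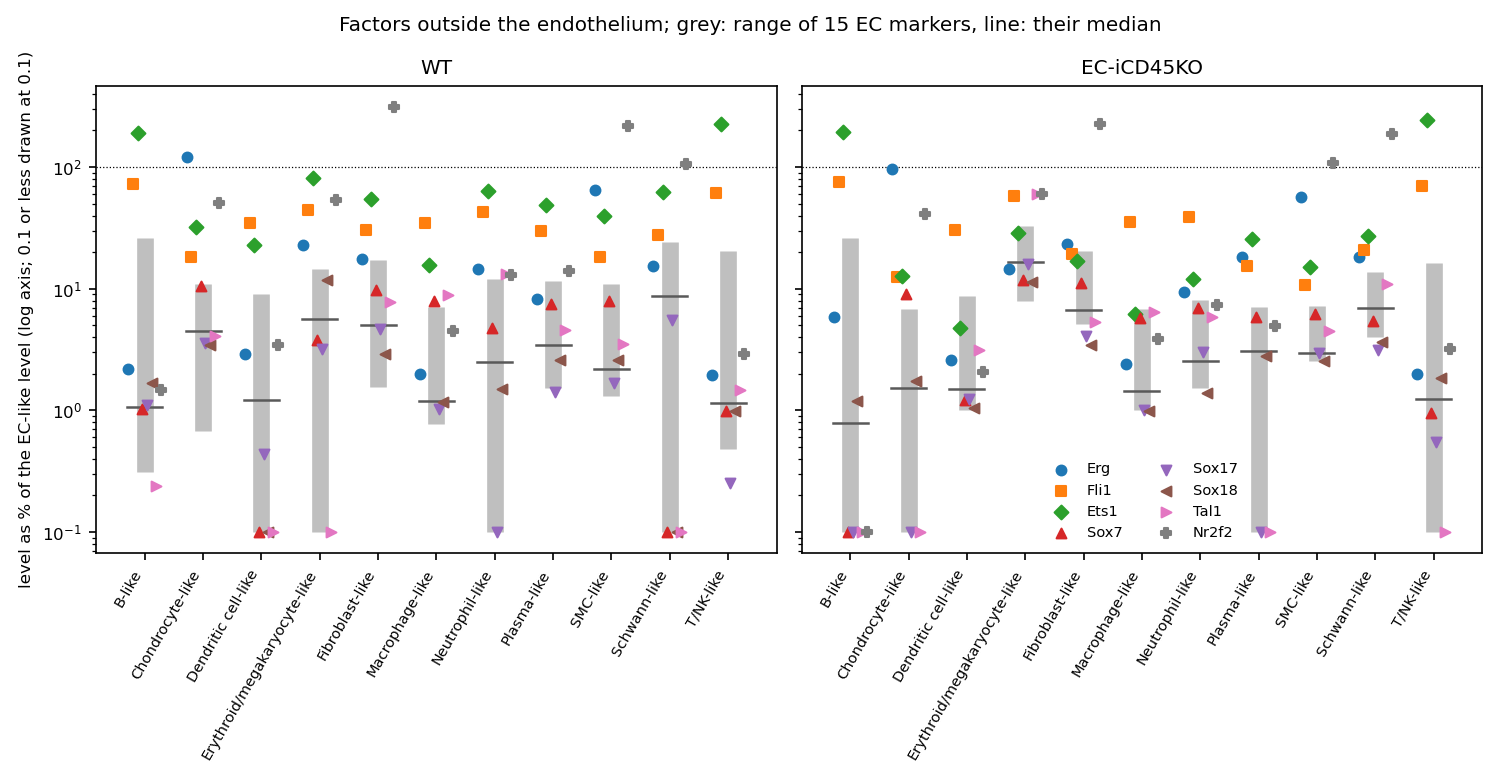
Level of each factor in 11 other classes as a percent of its EC-like level in the same library (log axis), with the range (grey) and median (line) of the 15 EC markers. Erg in chondrocyte-like and SMC-like cells, Ets1 in B-like and T/NK-like cells and Nr2f2 in fibroblast-like cells stand above the grey range, and Sox18 and Sox17 do not; Prox1 is left out because its EC-like level was near 0.

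Fli1 was spread over endothelium and leukocytes. EC-like cells had 448 CPM in WT (433 to 462) and 474 CPM in EC-iCD45KO (461 to 488). The Gpihbp1 and Ccdc85a capillary cluster again stood first, at 821 and 921 CPM, and the venous cluster second, at 554 and 454 CPM. B-like cells had 327 and 355 CPM, and T/NK-like cells 274 and 333 CPM, above the arterial cluster at 270.3 and 255 CPM, although the T/NK-like and arterial intervals overlapped in WT. Macrophage-like cells had 156 and 167 CPM, 34.9% and 35.2% of the EC-like level. No EC marker exceeded 7.11% and 6.83% there. Relative to EC-like cells, Fli1 stood above all 15 EC markers in 12 of the 13 other groups of cells in WT and in 11 in EC-iCD45KO, with lymphatic EC-like and unnamed cells counted among the 13.

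Ets1 had its highest levels outside endothelium. T/NK-like cells had 684 CPM in WT (667 to 702) and 585 CPM in EC-iCD45KO (542 to 630.0), and B-like cells 577 and 472 CPM. EC-like cells came next, at 301 CPM in WT (289 to 313) and 242 CPM in EC-iCD45KO (232 to 252). The log2 ratio in EC-like cells was -0.32 (-0.40 to -0.23). Ets1 was the 1 factor among those tested that was lower in EC-iCD45KO in the EC-like class. By cluster it was at 326 and 171 CPM in the Rbp7 and Sema3g cluster, 317 and 279.8 CPM in the venous cluster, 183 and 134 CPM in the arterial cluster and 429.6 and 387 CPM in the capillary cluster.

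Ets1 was also lower in EC-iCD45KO in cells of other kinds. It was at least 1.5-fold lower in 10 of the 13 named classes. The share of all genes that far down was 4.13% in macrophage-like, 8.50% in SMC-like, 11.3% in dendritic cell-like, 11.4% in fibroblast-like and 17.8% in chondrocyte-like cells. It was 21.1% in lymphatic EC-like, 22.5% in neutrophil-like, 22.6% in Schwann-like, 29.5% in erythroid or megakaryocyte-like and 35.1% in plasma-like cells. In the 3 classes where Ets1 was not that far down, the share was 6.32% (B-like), 6.77% (T/NK-like) and 7.52% (EC-like). Fibroblast-like cells had 164 and 40.9 CPM (log2 ratio -2.01), SMC-like cells 118 and 36.4 CPM (-1.70), macrophage-like cells 47.2 and 15.1 CPM (-1.64) and neutrophil-like cells 192 and 28.8 CPM (-2.74). Lymphocyte RNA moved the same way. The 9 B markers summed to 2057 CPM in WT EC-like cells and 648 CPM in the EC-iCD45KO ones, and the 11 T/NK markers to 416.5 and 82.6 CPM. At the marker proportions given above for Ptprc, B-like RNA would carry 82.2 and 4.50 CPM of Ets1, and T/NK-like RNA 43.6 and 6.22 CPM. In the Rbp7 and Sema3g cluster, where Ets1 was at 326 and 171 CPM, the same reckoning gave 113 and 7.12 CPM for B-like RNA and 64.3 and 8.83 CPM for T/NK-like RNA. Their part in the difference was not tested. With the Rbp7 and Sema3g cluster left out, the log2 ratio of Ets1 was -0.05. In the EC-like cells without a UMI of a T/NK, B or plasma marker, Ets1 was at 247 and 170 CPM, a log2 ratio of -0.54 (-0.92 to -0.14). Those were 6.00% of the WT and 32.3% of the EC-iCD45KO EC-like cells, and 42.9% and 56.2% of them lay in the Rbp7 and Sema3g cluster. The 15 EC markers had a median log2 ratio of -0.31 there, with 3 above 0.

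**Figure D2:**
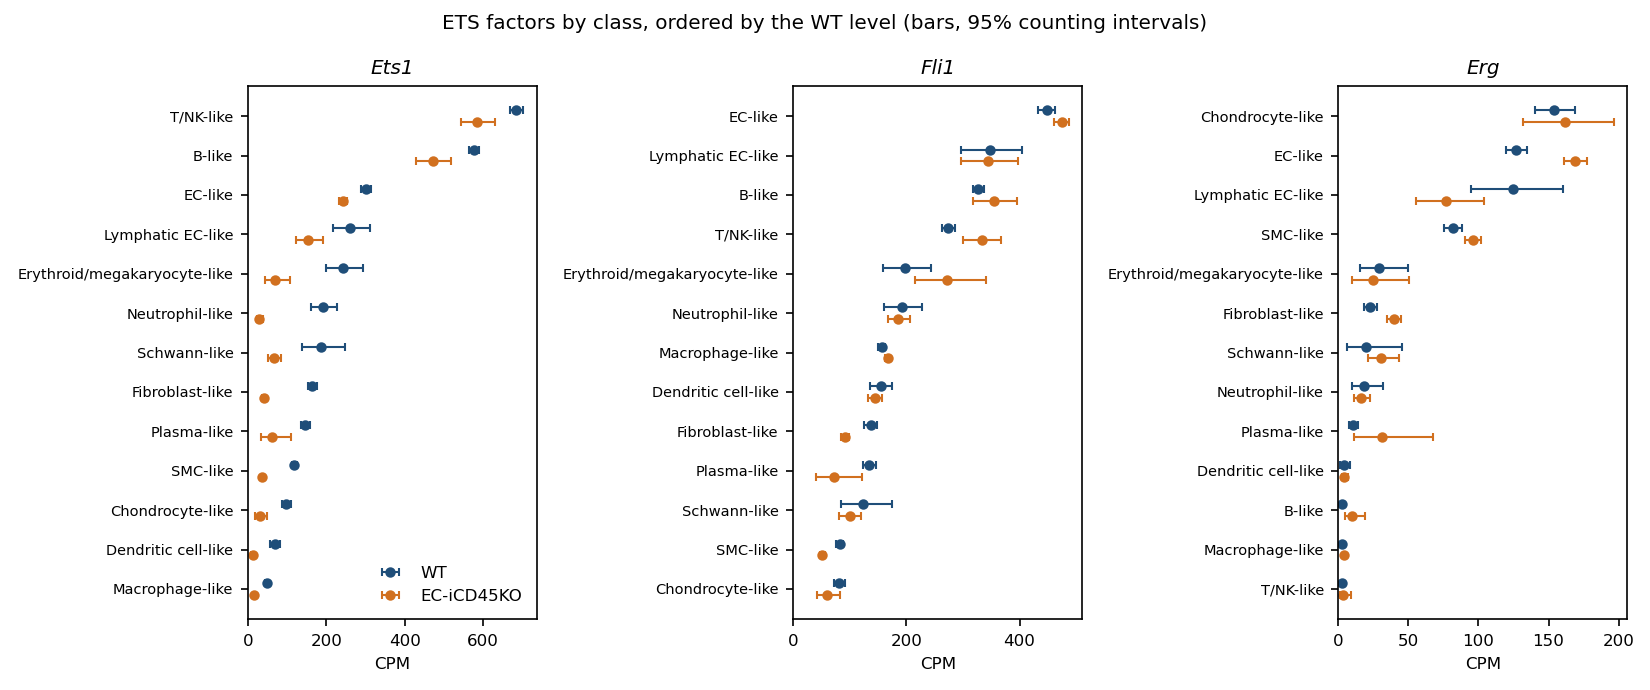
CPM of Ets1, Fli1 and Erg in each named class for WT (blue) and EC-iCD45KO (orange), with 95% Poisson intervals of counting error; classes are ordered by the WT level. Ets1 leads in T/NK-like cells and sits lower in EC-iCD45KO in every class drawn, Fli1 leads in EC-like cells, and Erg in chondrocyte-like cells stands beside its level in EC-like cells.

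Sox18 showed the largest difference between libraries among the 8 factors tested. EC-like cells had 95.7 CPM in WT (89.1 to 103) and 183.5 CPM in EC-iCD45KO (175 to 192), a log2 ratio of 0.94 (0.82 to 1.06). It was the 1 factor of 8 with a mean of at least 5 CPM that was at least 1.5-fold higher, where 4.73% of 10963 genes were, and none of the 8 was 1.5-fold lower, where 7.52% of genes were. The median log2 ratio of the 8 was 0.19, against -0.00 for all genes. That median was 0.059 with equal weight for each cluster, -0.018 without doublet removal and -0.40 in the EC-like cells without a UMI of a lymphocyte marker. After the same thinning, 8.09% of WT and 14.0% of EC-iCD45KO EC-like cells kept had a Sox18 UMI, against 0.0648% and 0.235% of macrophage-like cells.

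By cluster, Sox18 was at 71.0 and 147 CPM in the Rbp7 and Sema3g cluster, 88.0 and 181 CPM in the venous cluster, 92.7 and 216 CPM in the arterial cluster and 194.5 and 236 CPM in the capillary cluster. The log2 ratios were 1.05, 1.04, 1.22 and 0.28. Lymphatic EC-like cells had 50.6 and 88.0 CPM (0.80, 0.06 to 1.57). EC markers moved in the same direction but less. In EC-like cells 13 of 15 were higher in EC-iCD45KO, with a median log2 ratio of 0.33 and a range from -0.24 for Vwf to 0.62 for Cdh5, and all 15 lay under Sox18. In the capillary cluster their median was 0.21, and Sox18 exceeded 11 of 15. There the 11 macrophage markers summed to 693 and 446.5 CPM, against 3041 and 3689 CPM in all EC-like cells. In the 233 WT and 1258 EC-iCD45KO EC-like cells without a UMI of a T/NK, B or plasma marker, Sox18 was at 100.2 and 117 CPM (log2 ratio 0.22, -0.34 to 0.84), from 30 and 167 UMIs. The same cells were shallow, at a median of 936 and 872.5 UMIs. In them 5 factors that were higher in EC-iCD45KO over the whole class, Tal1 only within counting error, turned lower. These were Erg (-0.31, -0.78 to 0.18), Fli1 (-0.28), Sox7 (-0.49), Sox17 (-0.65, -1.12 to -0.15) and Tal1 (-0.86), and the Erg interval included 0. Nr2f2 went the other way, to 1.04. The EC markers there had a median of -0.31.

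In none of the 13 other groups of cells, in either library, did Sox17 or Sox18 exceed the highest of the 15 EC markers relative to EC-like cells. Sox18 levels outside endothelium were 2.76 and 6.32 CPM in fibroblast-like cells and 2.49 and 4.66 CPM in SMC-like cells. Those values were 2.89% and 3.45%, and 2.60% and 2.54%, of the EC-like level. The highest named class outside endothelium was the erythroid or megakaryocyte-like one, with 11.2 and 20.96 CPM from 5 and 6 UMIs. The unnamed cells had 7.53 CPM of Sox18 in WT (149 UMIs), and 150 UMIs in EC-iCD45KO, where the interval ran from 18.6 to 25.8 CPM.

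Sox7, a SoxF factor of early vascular development, had 59.6 CPM in WT EC-like cells (54.5 to 65.1) and 88.8 CPM in the EC-iCD45KO ones (83.0 to 94.9). The log2 ratio of 0.58 (0.41 to 0.74) lay just under 1.5-fold. The capillary cluster led in both libraries with 120.1 and 121 CPM and its ratio had an interval around 0 (0.01, -0.33 to 0.35). The venous cluster had 63.0 and 93.5 CPM, the arterial 51.8 and 82.4 CPM, the Rbp7 and Sema3g cluster 42.5 and 70.2 CPM and the lymphatic cluster 37.9 and 44.0 CPM. The intervals of these 4 clusters overlapped from neighbour to neighbour in both libraries.

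Sox17, the SoxF factor known from arteries, differed more between endothelial clusters than the other SoxF members did. The capillary cluster had 295 CPM in WT (262 to 331) and 233 CPM in EC-iCD45KO (210.2 to 258), and the Rbp7 and Sema3g cluster 164 and 219 CPM, whose intervals overlapped in EC-iCD45KO and not in WT. The Sfrp1 and Tmem158 arterial cluster had 109.99 and 118 CPM, the venous cluster 65.7 and 73.5 CPM, and lymphatic EC-like cells 6.32 and 16.5 CPM from 3 and 9 UMIs. Over all EC-like cells the values were 139.5 and 153 CPM (0.13, 0.02 to 0.25). This small difference had no single direction across clusters, with log2 ratios of 0.42 in the Rbp7 and Sema3g cluster and -0.34 in the capillary cluster. A finer clustering, given below, had no cluster led by Rbp7 and Sema3g. There the Igf2 and Sema3g cluster (574 and 842 cells) had 312 and 344 CPM of Sox17. The Gpihbp1 and Ablim3 cluster (1301 and 991 cells) had 66.6 and 57.2 CPM. In each the intervals of the libraries overlapped. The part of changed makeup in the ratio of 0.42 was not tested. Without doublet removal the class value was -0.22, and that of Fli1 -0.061.

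**Figure D3:**
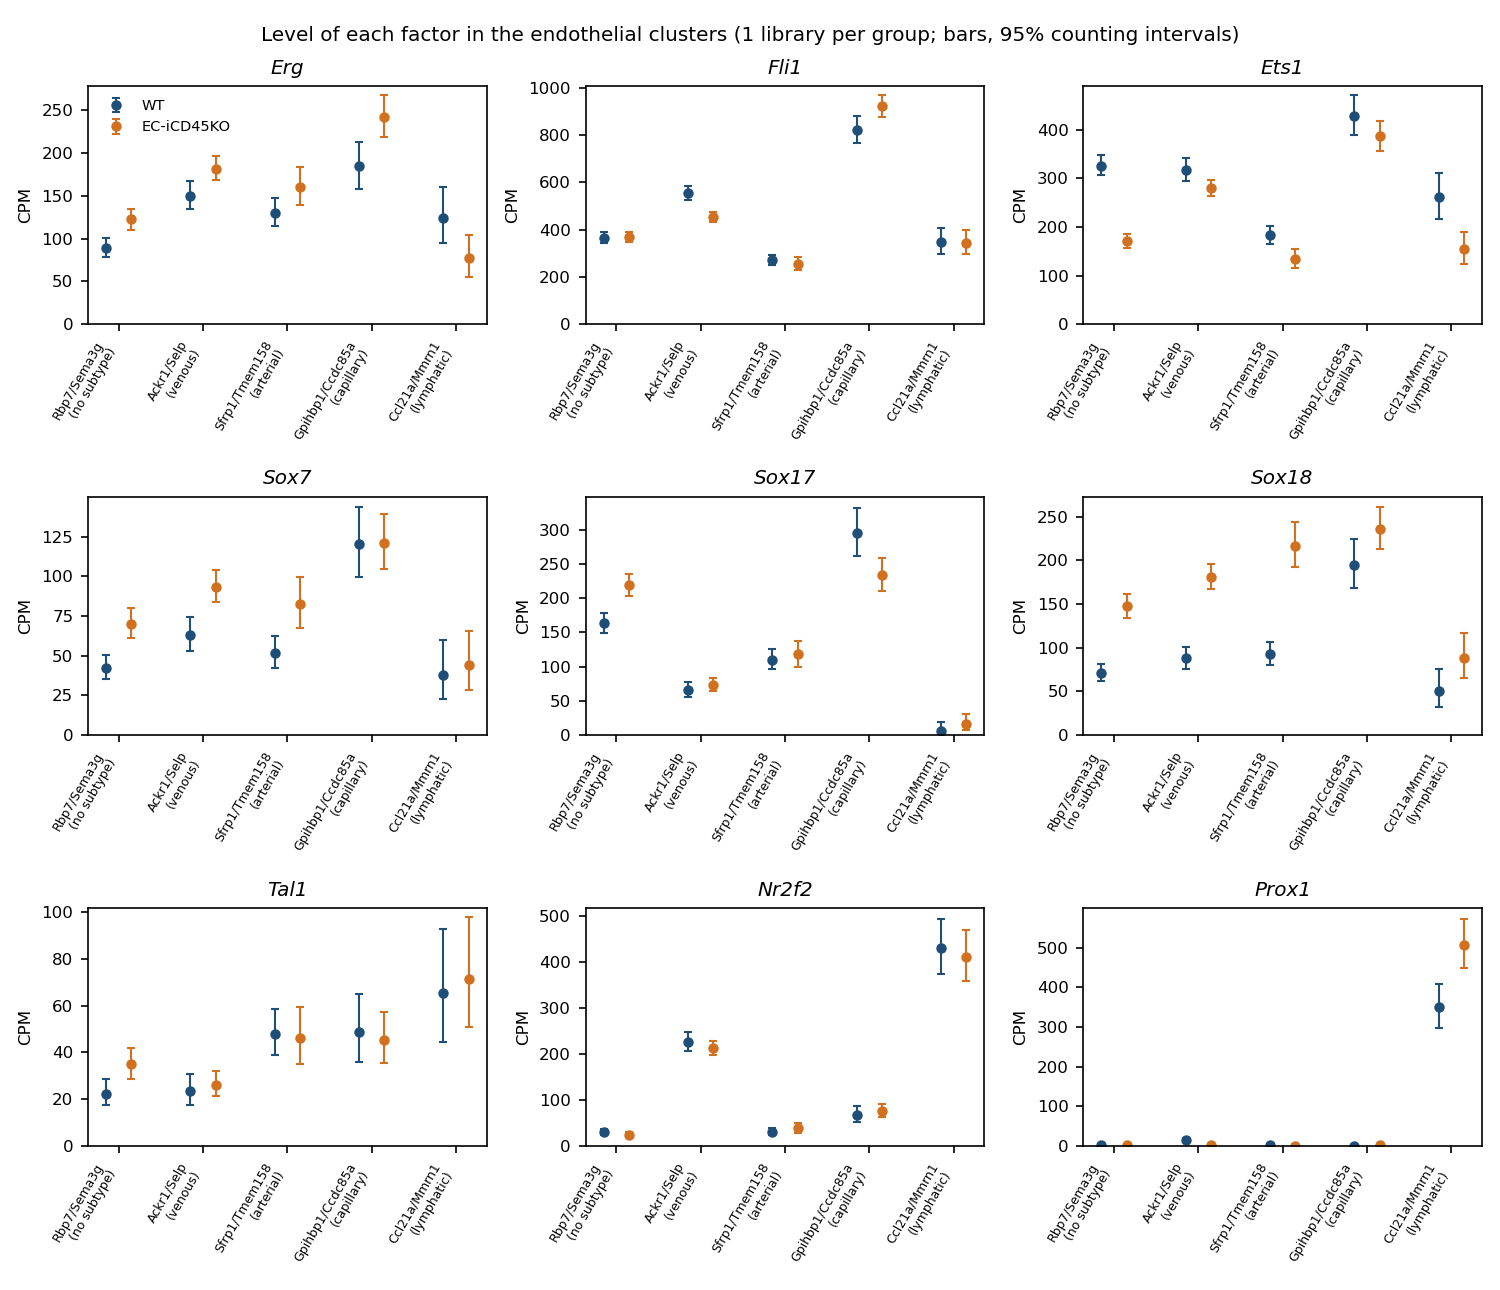
CPM of each factor in the 5 endothelial clusters (x axis, named by their 2 leading genes and subtype) in WT (blue) and EC-iCD45KO (orange), with 95% Poisson intervals of counting error. The Gpihbp1 and Ccdc85a capillary cluster is highest for Erg, Fli1, Ets1, Sox7, Sox17 and Sox18, and the Ccl21a and Mmrn1 lymphatic cluster for Tal1, Nr2f2 and Prox1. That capillary cluster also had the lowest macrophage marker sum of the 5 in both libraries.

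A finer clustering separated the endothelium further. An arterial cluster led by Igf2 and Sema3g had 312 CPM of Sox17 in WT (281 to 346) and 344 CPM in EC-iCD45KO (317 to 372), with 18.5 and 19.3 CPM of Nr2f2. A second arterial cluster, led by Sfrp1 and Tmem158, had 115 and 109.9 CPM of Sox17. Sox17 in the Igf2 and Sema3g cluster also exceeded that of the Gpihbp1 and Ccdc85a capillary cluster in EC-iCD45KO (232 CPM), while in WT the intervals overlapped (296 CPM). The 2 arterial clusters thus differed in Sox17 beyond their counting intervals in both libraries, while their Erg levels, 138 and 157 CPM against 131 and 153 CPM, overlapped. A cluster led by Gpihbp1 and Ablim3, with 1301 and 991 cells, also bore capillary markers. At this resolution the capillary name thus covered the highest and the lowest Sox18 levels among the 6 EC-like clusters in WT. The Gpihbp1 and Ablim3 cells had 53.4 and 66.8 CPM of Erg, 66.6 and 57.2 CPM of Sox17 and 35.9 and 53.0 CPM of Sox18. Relative to the Gpihbp1 and Ccdc85a cluster, Erg stood at 30.1% and 27.8% there and Sox18 at 18.9% and 22.5%, and the EC markers at a median of 26.5% and 23.7%. The macrophage markers summed to 6209 CPM in WT and 11830 CPM in EC-iCD45KO in these cells, against 679 and 455 CPM in the Gpihbp1 and Ccdc85a cluster. Of 2 venous clusters, the one led by Ackr1 and Selp had 347 and 361 CPM of Ets1, with overlapping intervals, and 129 and 241 CPM of Sox18. The one led by Ackr1 and Ubd had 290.4 and 197 CPM of Ets1, with intervals apart, and 53.1 and 115 CPM of Sox18. The macrophage markers summed to 984 and 951 CPM in the first and to 4468 and 5645 CPM in the second. Erg in the first, at 199 and 226 CPM, overlapped that of the Gpihbp1 and Ccdc85a cluster, at 177 and 241 CPM. EC markers in the first stood at a median of 92.1% and 82.4% of their level in that capillary cluster.

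Tal1 was the member with the lowest UMI count in EC-like cells apart from Prox1, with 265 UMIs in WT and 342 in EC-iCD45KO. That gave 32.2 CPM (28.4 to 36.3) and 34.9 CPM (31.3 to 38.8), a log2 ratio of 0.12 (-0.12 to 0.35). The lymphatic cluster had the highest level in both libraries, 65.3 CPM (44.4 to 92.7) and 71.5 CPM (50.8 to 97.7). It was followed by the arterial cluster, at 47.8 and 46.2 CPM, and the capillary cluster, at 48.9 and 45.4 CPM, and the 3 intervals overlapped. The venous cluster had 23.7 and 26.3 CPM. Outside endothelium, Tal1 was at 2.85 and 2.24 CPM in macrophage-like cells and at 0.470 CPM and 0 UMIs in T/NK-like cells. Erythroid or megakaryocyte-like cells had 0 UMIs in WT and 20.96 CPM in EC-iCD45KO, from 6 UMIs, which was 60.1% of the EC-like level, where no EC marker exceeded 32.6%.

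Within endothelium Nr2f2, the venous factor, followed vein and lymphatic markers. Lymphatic EC-like cells had 429.8 CPM in WT (373 to 493) and 410.5 CPM in EC-iCD45KO (358.5 to 468), and the venous cluster had 227 and 213 CPM. The capillary cluster had 68.2 and 76.3 CPM, the arterial cluster 31.6 and 38.5 CPM and the Rbp7 and Sema3g cluster 30.5 and 24.1 CPM. None of the 5 clusters differed between libraries beyond counting error. The EC-like class as a whole had 88.5 and 105.6 CPM (0.25, 0.12 to 0.39), and its venous cluster held 860 WT and 1210 EC-iCD45KO cells. With each EC-like cluster given equal weight the log2 ratio was -0.019.

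Nr2f2 was also high in stromal cells. Fibroblast-like cells had 275 CPM in WT and 240.0 CPM in EC-iCD45KO, above the venous cluster in WT and overlapping it in EC-iCD45KO. The fibroblast-like clusters differed: the one led by Saa3 and Sfrp4 (563 and 1421 cells) had 374 and 259.96 CPM. The one led by C7 and Clec3b (1495 and 1153 cells) had 159 and 174 CPM, under the venous level in both libraries. SMC-like cells had 194 and 113 CPM (-0.77, -0.88 to -0.67). Within them the difference lay in the cluster led by Acta2 and Vcam1, at 228 and 121 CPM, and not in that led by Cnn1 and Tagln, at 107 and 99.1 CPM. Schwann-like cells had 93.2 and 196 CPM, from 24 and 205 UMIs.

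Prox1 marked lymphatic EC-like cells. They had 349.7 CPM in WT (299 to 407) and 508 CPM in EC-iCD45KO (449.6 to 571), a log2 ratio of 0.54 (0.25 to 0.82), from 166 and 277 UMIs in 240 and 222 cells. The 10 lymphatic markers also rose in the lymphatic cluster, from a sum of 15370 CPM to 19780 CPM. Of all genes, 41.3% were at least 1.5-fold apart there. After thinning, which kept 158 and 117 of these cells, 42 of them (26.6%) and 36 (30.8%) had a Prox1 UMI, against 0.611% and 0.359% of the EC-like cells kept. In EC-like cells Prox1 was at 5.34 and 2.35 CPM, under the mean of 5 CPM that the other 8 passed. Most of that came from the venous cluster, with 33 of 44 UMIs in WT and 14 of 23 in EC-iCD45KO. There it stood at 14.7 and 3.80 CPM, 4.22% and 0.748% of the lymphatic level, and 10 lymphatic markers stood at a median of 4.82% and 1.77%.

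**Figure D4:**
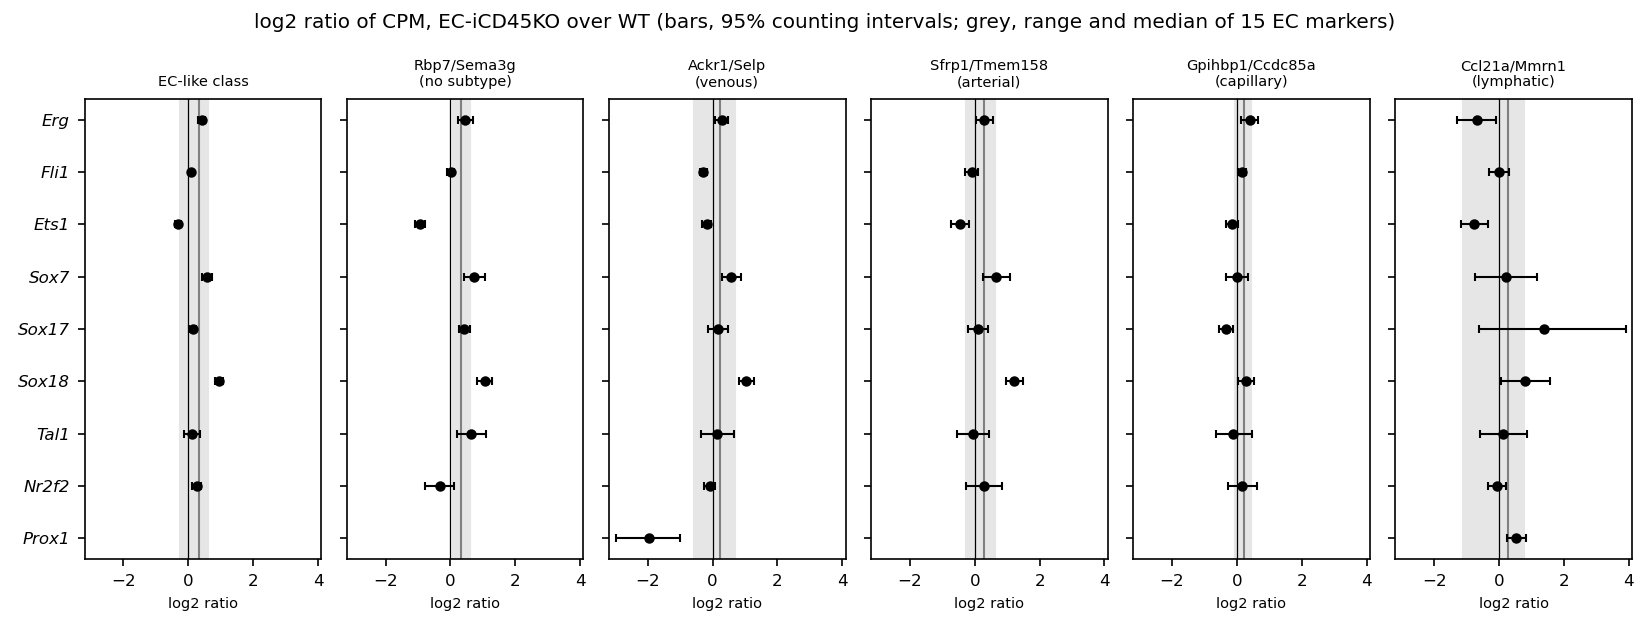
Log2 ratio of CPM, EC-iCD45KO over WT, of each factor in the EC-like class and the 5 endothelial clusters; points are ratios, bars 95% intervals of counting error, and grey the range and median of the 15 EC markers in the same cells. Sox18 lies right of the grey range in the EC-like class and in 3 of its 4 clusters, Ets1 lies left of 0 in all panels, and factors with a mean under 5 CPM are not drawn.

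In the Rbp7 and Sema3g cluster 4 of 8 factors tested were at least 1.5-fold apart, against 19.6% of all genes. Sox7, Sox18 and Tal1 were higher in EC-iCD45KO and Ets1 lower. In the finer clustering Tal1 was at 34.3 and 48.8 CPM in the Igf2 and Sema3g cluster (574 and 842 cells). It was at 14.3 and 11.7 CPM in the Gpihbp1 and Ablim3 cluster (1301 and 991 cells), and in both clusters its intervals overlapped between libraries. Sox7 was at 58.9 and 101 CPM in the first, with intervals apart, and at 28.5 and 29.6 CPM in the second. In the venous cluster 2 of 9 were at least 1.5-fold apart (20.6% of genes), Sox18 higher and Prox1 lower. In the arterial cluster 2 of 8 were (22.2%), Sox7 and Sox18, both higher. In the capillary cluster none of 8 passed 1.5-fold (20.6%). In lymphatic EC-like cells 4 of 9 did (41.3%), with Sox17 and Sox18 higher and Erg and Ets1 lower, Sox17 from 3 and 9 UMIs. There macrophage markers summed to 1808 and 4804 CPM, B markers to 2122 and 634 CPM and fibroblast markers to 2109 and 467 CPM. By the reckoning used above for Ets1, B-like RNA would carry 97.5 and 8.70 CPM of Ets1 there and T/NK-like RNA 53.9 and 1.025 CPM. Ets1 itself was at 261 and 154 CPM. The part of such RNA in these differences was not tested.

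Single cells carried few of the factors at once. Among the cells with at least 1000 UMIs, thinned to that depth, the 2620 and 2510 EC-like cells had a UMI of a mean of 1.06 of the 9 in WT and 1.12 in EC-iCD45KO, and 66.6% and 67.6% had at least 1. Capillary cells of the Gpihbp1 and Ccdc85a cluster had at least 1 in 86.2% and 88.6%, and lymphatic EC-like cells in 76.6% and 75.2%. B-like cells had at least 1 in 58.3% and 53.4%, through Fli1 and Ets1, and macrophage-like cells in 19.9% and 19.6%. At least 3 of the factors were seen in 7.90% and 9.80% of EC-like cells and in 0.168% and 0.322% of B-like cells.

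Across 32 class-by-library profiles of at least 50 cells, on log2(CPM + 10), the level of Sox18 followed that of Sox7 most closely among the factors (Pearson r 0.979), then that of Sox17 at 0.923 and that of Tal1 at 0.9205. These profiles share libraries, depth and any free RNA, so r is a description only. Among 7220 genes the 5 nearest to Sox18 were Scarf1, Tek, Sox7, Tie1 and Cdh5 (r 0.981 to 0.977), of which Tek and Tie1 encode angiopoietin pathway receptors and Cdh5 the junction protein VE-cadherin. Tek, Tie1 and Cdh5 were EC markers used for naming the classes, so their closeness is partly built in. Tal1 was nearest to the tight junction gene Cldn5 (0.959), also an EC marker used for naming, and Sox17 to Samd12 (0.979). Prox1 was nearest to Mmrn1 (0.989), a lymphatic marker used for naming. Ets1 was nearest to Gimap6, Gimap1 and Gimap9 (0.976 to 0.960), members of a GTPase family of lymphocytes, and its r with Erg was 0.142. Erg was nearest to Wwtr1 (0.929), a Hippo pathway coactivator, and Nr2f2 to Mpdz (0.896).

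Other genes of these pathways were counted in EC-like cells by the same rule. Of 40 other endothelial transcription factors 35 had a mean of at least 5 CPM, and 4 were at least 1.5-fold higher and 3 lower, with a median log2 ratio of 0.12. Over all genes 4.73% were that far higher and 7.52% that far lower, and these shares hold for the lists that follow. The higher ones were Meox1 (36.3 and 72.1 CPM, 0.99), Hlx (18.2 and 34.1 CPM, 0.90), Bcl6b (28.9 and 47.7 CPM, 0.72) and the Notch target Hey1 (31.1 and 48.7 CPM, 0.65). Aff3, a gene of lymphocytes, was at 163 and 15.8 CPM (-3.37), Gata6 at 59.0 and 32.1 CPM (-0.88) and Foxp1 at 655 and 431 CPM (-0.60). Gata6 was concentrated in the Sfrp1 and Tmem158 arterial cluster, at 174 and 152.5 CPM, which held 850 WT and 425 EC-iCD45KO cells. Of 13 other ETS factors tested none was higher and 1, the B cell factor Spib, was lower (11.5 and 0.918 CPM). Of 4 other Sox factors 2 were lower, Sox5 (35.0 and 10.9 CPM) and Sox6 (14.8 and 8.98 CPM). Among 12 Tal1 partners none was higher and 2 were lower, Lmo4 (85.1 and 47.6 CPM) and Ssbp2 (55.7 and 31.2 CPM).

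Genes described as targets of Erg, Fli1 or SoxF factors had a median log2 ratio of 0.40 over 26 tested, with 6 at least 1.5-fold higher (4.73% of all genes) and 1 lower (7.52%), where the median of all genes was -0.00. The 15 EC markers had a median of 0.33 in the same cells. Of the 27 genes in the list 15, such as Cdh5, also served to name cells, and 10 were EC markers themselves. Apln, the ligand of the receptor Aplnr, was at 2.91 and 21.1 CPM (log2 ratio 2.86, 2.24 to 3.53), and Aplnr at 43.8 and 92.5 CPM (1.08). Cdh5 was at 355 and 546 CPM (0.62), the Notch ligand Dll4 at 41.5 and 67.7 CPM (0.71), Angpt2 at 21.4 and 39.1 CPM (0.87) and Pdpn at 10.6 and 19.4 CPM (0.88). Vcam1, an adhesion molecule for leukocytes, was at 209 and 129 CPM (-0.70). It was highest in the Sfrp1 and Tmem158 cluster, at 529 and 407 CPM.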

How the data were processed

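The 2 10x Genomics libraries of CD31-enriched mouse aortic cells were used. The deposited matrices hold whole-number UMI counts per gene and barcode, written by Cell Ranger 7.1.0 per the file headers and with build mm10 per the submitters' processing notes. Cells with under 300 genes or over 10% mitochondrial UMIs were left out. Scrublet's own threshold marked 3 WT cells (0.00755%) and 0 EC-iCD45KO cells, so it had not worked, and the 10% highest scores were removed in each library. Clustering in scanpy 1.11.5 used 2000 variable genes, 30 components, 20 neighbours and leidenalg 0.10.2 at resolution 1, without the 9 factors. Clusters needed a mean marker excess of 1 (log2) and a lead of 0.75; the rest stayed unnamed (29.2% of WT and 12.2% of EC-iCD45KO cells). UMIs were summed per class to CPM. Intervals are exact (Poisson, Clopper-Pearson or conditional binomial) at 95% and cover counting error only. The calculation of ratios and intervals was checked on simulated counts. The members and lists were chosen with earlier results of these data known. Genes named in the text were the 9 factors, list members past 1.5-fold in EC-like cells and the 5 nearest by correlation. Of 32285 gene identifiers 32158 matched GENCODE M21. Alternatives were other cell filters, doublet treatment, centring, resolution, scaling (edgeR 4.0.16 TMM), cell weights, low-value rules and thinning, and 2 added after seeing the data. A protein comparison was not run.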

Additional observations from a re-analysis of the deposited data

Results flagged for a closer look

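Some factors differed between WT and EC-iCD45KO in opposite directions in 2 endothelial clusters, with counting intervals that excluded 0 on each side. The difference between clusters was not tested, since each group had 1 library. Erg had a log2 ratio of 0.46 in the Rbp7 and Sema3g cluster and -0.69 in the lymphatic cluster. Fli1 had 0.17 in the Gpihbp1 and Ccdc85a capillary cluster and -0.29 in the venous cluster, where it was at 554 and 454 CPM. By the reckoning used for Ets1, B-like RNA would carry 41.8 and 3.81 CPM of Fli1 in the venous cluster and T/NK-like RNA 16.5 and 1.38 CPM. Macrophage-like RNA would carry 21.9 and 29.6 CPM. Their part in the Fli1 ratio was not tested. Sox17 had 0.42 in the Rbp7 and Sema3g cluster and -0.34 in the capillary cluster. In the finer clustering Sox17 intervals overlapped between libraries in the Igf2 and Sema3g cluster, with 574 and 842 cells. They also did in the Gpihbp1 and Ablim3 cluster, with 1301 and 991 cells. Prox1 had 0.54 in the lymphatic cluster and -1.96 in the venous cluster, there from 33 and 14 UMIs. The 10 lymphatic markers summed to 15370 and 19780 CPM in the lymphatic cluster and to 1356 and 278 CPM in the venous cluster.

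Clusters that got no class name also held factors at high levels. Nr2f2 reached 568 CPM in WT and 652 CPM in EC-iCD45KO in a cluster led by Notch3 and Dgkb, whose nearest marker lists were those of smooth muscle and pericytes. It was at 211 CPM in the WT cells of a cluster led by Notch3 and Igfbp3, 187.2 CPM and 187 CPM in one led by Timp1 and Ptx3, 190.6 CPM in WT cells of one led by Glycam1 and Ccl21a, and 109.5 CPM in WT cells of one led by Mmp13 and Slurp1. Ets1 was at 646 CPM in WT cells of a cluster led by Lef1 and Gm2682. Prox1 was at 65.8 CPM, from 16 UMIs in 116 cells, in WT cells of a cluster led by the immunoglobulin genes Ighg3 and Ighg2c, and at 0 UMIs in its 53 EC-iCD45KO cells.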

How the results depend on the processing

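Each log2 ratio in EC-like cells was recomputed under 12 alternatives, 2 of them added after seeing the data. Of 107 single-factor values 12 changed sign, 3 of them of Tal1, whose interval included 0. Sox18 stayed above 0 in all 12, from 0.22 to 0.96, and Ets1 below 0, from -0.62 to -0.05. Without doublet removal, where the clustering gave 2232 WT and 3516 EC-iCD45KO EC-like cells in place of 3882 and 3896, the median of the factors was -0.018, with Fli1 at -0.061, Sox17 at -0.22 and Tal1 at -0.17. With equal weight for each cluster the median was 0.059, Fli1 -0.0098 and Nr2f2 -0.019. Without the Rbp7 and Sema3g cluster Sox17 was at -0.058 and Tal1 at -0.12. In EC-like cells without lymphocyte marker UMIs the median was -0.40, with Erg at -0.31, Fli1 at -0.28, Sox7 at -0.49, Sox17 at -0.65, Tal1 at -0.86, Ets1 at -0.54 and Nr2f2 at 1.04; 6.00% of WT and 32.3% of EC-iCD45KO cells remained, and the EC markers had a median of -0.31. The count past 1.5-fold was 2 where Sox18 was joined by Sox7 (0.60 under the stricter filter and TMM scaling), Ets1 (-0.62, means of single-cell CPM) or Prox1 (-1.04 with no minimum level, -1.44 without the Rbp7 and Sema3g cluster). It was 3 in cells without lymphocyte marker UMIs: Sox17, Tal1 and Nr2f2, with Sox18 at 0.22. The cause was not tested. No paired analysis was possible because WT and EC-iCD45KO had 1 library apiece, so no replicate could be left out.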

Other observations

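Sox7 had a place outside endothelium. Among 4 macrophage-like clusters, the one led by Zmynd15 and Myo16 had 13.4 CPM of Sox7 in WT and 18.4 CPM in EC-iCD45KO. The clusters led by Ccl8 and Ccl12, by Chil3 and F10 and by Gpnmb and Mmp12 had 1.53, 0.314 and 3.05 CPM in WT and 1.39, 1.06 and 4.93 CPM in EC-iCD45KO. In the Zmynd15 and Myo16 cluster Sox7 was at 22.5% and 20.7% of its EC-like level, where no EC marker exceeded 6.05% and 5.50%, and its SoxF relatives were at 0.875% and 0.418% (Sox18) and 0.5998% and 0.8007% (Sox17). The intervals of this cluster lay above those of the other 3 macrophage-like clusters in both libraries. This cluster was singled out after its values were seen.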
